A study of Mus musculus with 3 samples.

Results

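The genes described here are 29 mouse genes of cholesterol and fatty acid synthesis, taken as a list by symbol from 19938 genes measured on 3 arrays of CD4 T cells. The list was chosen with earlier results of these data known. They fall into 15 sterol synthesis enzymes, 6 sterol regulators, 2 sterol exporters and 6 genes of fatty acid synthesis, and 28 of them had a probe with a single gene symbol. Acat2, the enzyme that makes the acetoacetyl-CoA used at the start of the sterol pathway, had no such probe. It has no array value here and enters only the promoter counts. RNA came from 3 samples, Th0, Th22 and Th17, each on 1 array. All 3 were OT-II cells (strain B6.Cg-Tg(TcraTcrb)425Cbn/J), splenic CD4 T cells with a transgenic receptor for an ovalbumin peptide, sorted as naive CD4+CD25-CD62LhighCD44low cells. They were stimulated with the peptide on spleen antigen-presenting cells that had been depleted of T cells and came from Il23a-/- mice, so all 3 groups shared a feeder unable to make IL-23. Th0 cells received no cytokine, Th22 cells IL-6 alone, and Th17 cells IL-6 with TGFβ, and all were purified with magnetic beads after 60 hours. The labels do not give the age or number of the mice.

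Each value below is a log2 difference from the gene's own median over the 3 arrays, because the deposited table is centred in that way. It holds differences between arrays and no expression level, so genes cannot be ranked by level, and identical values on the 3 arrays may mean equal expression or none detected. Shares of all 19938 genes given below count 7507 genes equal on all 3 arrays, which can pass no threshold. Base 2 is an assumption, and so is the reading of a higher value as more RNA. With 1 array a group no test was possible and no difference has a replicate check. The only repeat measurement was the disagreement between 2 probes of 1 gene. In 95% of genes with such probes, at least 1 of which differed between the arrays, the Th17 to Th22 difference of the probes disagreed by less than 0.41 log2, the Th22 to Th0 difference by less than 0.33 and the Th17 to Th0 difference by less than 0.47. The Th17 array spread more widely than the others over all probes, with an SD of 0.277 log2 against 0.166 for Th0 and 0.125 for Th22.

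Cholesterol is built from acetyl-CoA through mevalonate and isoprenoid diphosphates to squalene, which is closed into lanosterol and trimmed to cholesterol. The transcription factor SREBP2, encoded by Srebf2, drives most of these enzymes, and SREBP1, encoded by Srebf1, drives fatty acid synthesis. SCAP carries both to the Golgi when sterols are scarce, and INSIG proteins hold them back when sterols are plentiful. Surplus sterol is sensed by LXR, a nuclear receptor bound by oxysterols, which raises the exporters ABCA1 and ABCG1. Activated T cells make lipid for new membranes, fatty acid synthesis through acetyl-CoA carboxylase is known to be needed for Th17 development, and sterol intermediates can act as ligands of RORγt, the nuclear receptor of Th17 cells.

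Promoters of the enzymes are shown because SREBP proteins act on such genes together with NF-Y, which binds the box CCAAT. RefSeq windows (GRCm38.p6) matched 22 of the 29 genes, each reaching from 250 bases before to 50 after a start site. CCAAT, on either strand, lay in at least 1 window of 11 of 12 sterol synthesis enzymes, against 41.1% of all 27025 genes with a window. It lay in 4 of 5 regulators and in 2 of 4 fatty acid genes. A gene with more windows has more places for a match. By window CCAAT lay in 11 of 15 for the enzymes, 5 of 10 for the regulators and 2 of 4 for the fatty acid genes. Of all windows 37.4% held it. The sterol element core TCACNCCAC lay in 1 gene, Hmgcs1, against 1.44% of all genes, and the E-box CACGTG in 5 of 22, against 8.09%. The E-box was found in Hsd17b7, Dhcr7, Insig1, Scap and Abca1. The perfect direct repeat that LXR with RXR binds (the same short site repeated after 4 bases) was in 0 of 22, against 0.0148% of all genes. Both strands were searched, no match of a motif overlapped that of another in these windows, and a match is a description of letters only. The 250 bases before the start of 6 genes follow, 5′ to 3′, chosen because 4 of the enzymes were at least 1.5-fold apart between arrays (Hmgcs1, Lss, Dhcr7 and Idi1), because Mvk held the most CCAAT boxes and because Elovl6, at least 2-fold apart, held none. Capitals mark CCAAT or its reverse complement ATTGG and, in Hmgcs1, also the sterol element core. Dhcr7 has 3 windows, and the one with CCAAT is shown.
Hmgcs1, chr13:119690101-119690350, plus strand: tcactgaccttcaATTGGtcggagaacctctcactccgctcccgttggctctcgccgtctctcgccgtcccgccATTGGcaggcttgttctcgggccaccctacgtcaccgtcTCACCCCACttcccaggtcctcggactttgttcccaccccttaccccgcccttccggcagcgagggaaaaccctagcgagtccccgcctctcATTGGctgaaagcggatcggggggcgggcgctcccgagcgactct
Lss, chr10:76531355-76531604, plus strand: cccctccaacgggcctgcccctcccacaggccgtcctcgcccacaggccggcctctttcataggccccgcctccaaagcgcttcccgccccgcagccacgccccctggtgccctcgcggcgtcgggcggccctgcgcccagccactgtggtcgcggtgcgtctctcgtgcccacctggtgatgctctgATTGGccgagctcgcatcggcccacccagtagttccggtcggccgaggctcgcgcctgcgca
Dhcr7, chr7:143829964-143830213, plus strand: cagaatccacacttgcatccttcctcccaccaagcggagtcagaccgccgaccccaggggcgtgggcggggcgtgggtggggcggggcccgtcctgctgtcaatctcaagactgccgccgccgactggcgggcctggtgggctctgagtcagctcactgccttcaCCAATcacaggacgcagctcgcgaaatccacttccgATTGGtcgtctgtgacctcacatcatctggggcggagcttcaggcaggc
Idi1, chr13:8885356-8885605, plus strand: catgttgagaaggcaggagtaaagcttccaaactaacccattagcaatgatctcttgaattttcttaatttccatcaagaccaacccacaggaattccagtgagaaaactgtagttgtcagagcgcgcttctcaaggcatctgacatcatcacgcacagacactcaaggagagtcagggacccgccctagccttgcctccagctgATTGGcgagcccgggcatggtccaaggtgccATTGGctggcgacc
Mvk, chr5:114444019-114444268, plus strand: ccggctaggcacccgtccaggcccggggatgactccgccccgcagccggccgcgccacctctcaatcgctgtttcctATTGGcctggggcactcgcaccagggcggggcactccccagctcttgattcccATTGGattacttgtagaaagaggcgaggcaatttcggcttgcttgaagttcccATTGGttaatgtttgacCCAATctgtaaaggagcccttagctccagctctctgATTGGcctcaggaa
Elovl6, chr3:129532136-129532385, plus strand: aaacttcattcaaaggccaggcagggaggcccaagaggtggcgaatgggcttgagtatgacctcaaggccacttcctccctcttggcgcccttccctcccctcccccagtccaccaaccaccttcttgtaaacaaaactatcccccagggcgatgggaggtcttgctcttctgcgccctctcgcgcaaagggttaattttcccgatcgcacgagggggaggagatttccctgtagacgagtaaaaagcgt

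Th17 against Th22 shows how cells given TGFβ with IL-6 differed from cells given IL-6 alone. Sterol synthesis enzymes were lower in Th17 almost throughout, most of them slightly, and fatty acid synthesis held the largest single differences. Of 14 measured enzymes 13 were lower in Th17 by some amount and 0 were higher, and the median was -0.34 log2, a 1.26-fold difference. Over all 19938 genes the median was 0, 26.3% were lower by any amount and 29.2% higher. Many genes are equal on all 3 arrays, and of the 12431 that were not, 42.1% were lower and 46.9% higher in Th17. Of the 28 members 22 were lower and 3 higher, with a median of -0.30 log2.

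Few of these differences were large. At least 2-fold lower in Th17 were 2 of 28 members, Scd1 and Elovl6, against 1.5% of all genes, and at least 2-fold higher were 0, against 1.1%. At least 1.5-fold lower were 6 (Hmgcs1, Lss, Dhcr7, Acly, Scd1 and Elovl6), against 3.37% of genes, and at least 1.5-fold higher were 0, against 2.12%. Those 6 and the sterol carrier gene Stard4 were further apart than 95% of probe pairs, 7 of 28 against 8.75% of genes. The remaining 21 members lay inside that probe disagreement, so no single one of them is separated from probe error. Quantile normalization was applied to the centred differences, not to intensities, and forced the arrays to the same distribution. It thereby also narrows the wider spread of the Th17 array. After it 1 member was still past 2-fold, Elovl6, and 3 past 1.5-fold, Lss, Scd1 and Elovl6. Of all 19938 genes, those at least 2-fold lower went from 300 to 202, and those higher from 220 to 197. With each array centred on its mean 5 members passed 1.5-fold, Acly being the one lost.

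**Figure D1:**
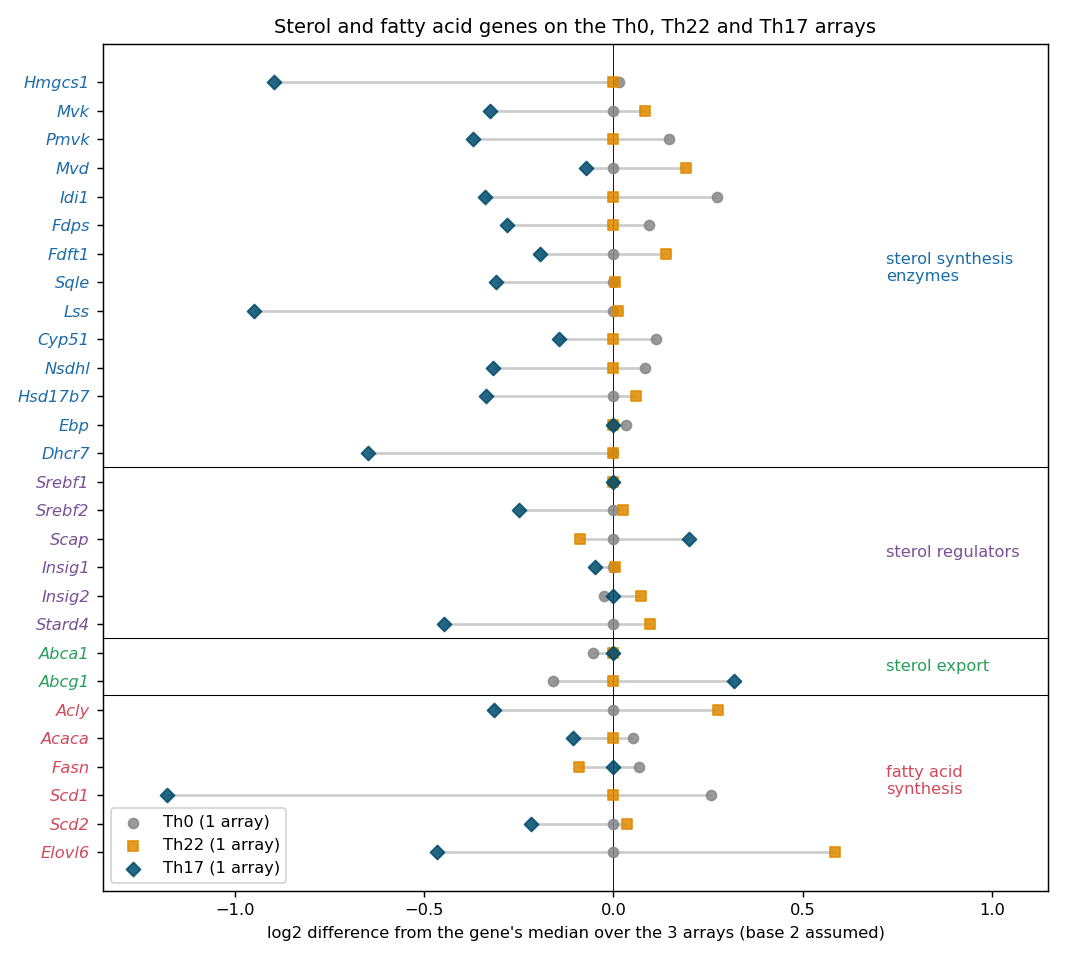
Value of each measured gene on the Th0 (circle), Th22 (square) and Th17 (diamond) array, as the log2 difference from the gene's median over the 3 arrays, in pathway order and grouped by role. The Th17 diamonds lie left of 0 for 13 of 14 sterol synthesis enzymes, with Hmgcs1 at -0.90, Lss at -0.95 and Dhcr7 at -0.65, and Scd1 lies furthest left at -1.18.

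In the first part of the sterol pathway, which leads to farnesyl diphosphate, Hmgcs1 stood out. It encodes the HMG-CoA synthase that feeds the mevalonate pathway, and read 0.016 in Th0, 0 in Th22 and -0.90 in Th17. Th0 and Th22 thus lay together and Th17 was 1.86-fold below Th22, a difference at or below which 1.80% of all genes lay. After quantile normalization it was 1.46-fold below. Idi1, the isomerase that readies isoprenoid units for joining, read 0.27 in Th0, 0 in Th22 and -0.34 in Th17, a descending order with Th17 1.27-fold below Th22. Its 2 probes gave nearly the same difference, -0.33 and -0.35 log2.

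The other enzymes of that stretch moved less. Mvk, mevalonate kinase, read 0 in Th0, 0.085 in Th22 and -0.32 in Th17. Pmvk, the next kinase, read 0.15, 0 and -0.37 in the same order of arrays. Mvd, the decarboxylase that follows, read 0, 0.19 and -0.072, and Th17 was the lowest of the arrays for all 3 genes. Fdps, which joins isoprenoid units into farnesyl diphosphate, read 0.094 in Th0, 0 in Th22 and -0.28 in Th17. The differences of these genes between Th17 and Th22 ran from -0.41 (Mvk) to -0.26 (Mvd) log2.

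In the part of the pathway that belongs to sterols alone, Lss had the largest difference. It encodes lanosterol synthase, which closes the first ring system, and read 0 in Th0, 0.012 in Th22 and -0.95 in Th17. Th17 was 1.95-fold below Th22, just short of 2-fold, and 1.53-fold after quantile normalization. Dhcr7, the reductase of the last step to cholesterol, was equal in Th0 and Th22 at 0 and read -0.65 in Th17, which is 1.57-fold lower, or 1.32-fold after quantile normalization. For Hmgcs1, Lss and Dhcr7 the Th0 and Th22 arrays were nearly equal and only the Th17 array lay apart.

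Enzymes between these steps showed smaller differences in the same direction, Ebp excepted. Fdft1, squalene synthase, was 0.34 log2 lower in Th17 than in Th22, with 2 probes at -0.35 and -0.32. Sqle, the squalene epoxidase that limits flux through the late pathway, was 0.31 log2 lower. Nsdhl and Hsd17b7, which help to remove methyl groups from the sterol ring, were 0.32 and 0.40 log2 lower. Cyp51, the lanosterol demethylase, was 0.14 log2 lower, the smallest non-zero difference among the enzymes. Ebp, a sterol isomerase, was equal in Th17 and Th22.

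Fatty acid synthesis was less uniform than sterol synthesis. In Th17 5 of 6 genes were lower than in Th22 and 1 was higher, with a median of -0.42 log2 and a range from -1.18 to 0.091. Scd1, the desaturase that makes oleate from stearate, read 0.26 in Th0, 0 in Th22 and -1.18 in Th17, so Th17 was 2.27-fold below Th22, and 1.64-fold after quantile normalization. Elovl6, the elongase that makes stearate, read 0 in Th0, 0.59 in Th22 and -0.47 in Th17. Th0 lay between the other arrays, and Th17 was 2.08-fold below Th22, or 2.10-fold after quantile normalization.

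Acly, which makes cytosolic acetyl-CoA for both pathways, had the same order of arrays as Elovl6. It read 0 in Th0, 0.28 in Th22 and -0.32 in Th17, a 1.51-fold difference, or 1.43-fold after quantile normalization. The enzymes that build the chain itself differed little. Acaca, acetyl-CoA carboxylase, read 0.051, 0 and -0.11 in Th0, Th22 and Th17, with its 2 probes at -0.11 and -0.10 log2 for Th17 against Th22. Fasn, fatty acid synthase, read 0.067, -0.091 and 0, and was the only gene of the 6 that was higher in Th17 than in Th22, by 0.091 log2. Scd2, a desaturase closely related to Scd1, was 0.25 log2 lower, and signal of close relatives may not be fully separated by their probes.

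Among the regulators most values were small, with Stard4 and Scap furthest apart in opposite directions. In Th17 4 of 6 were lower than in Th22, 1 was higher and 1 equal, with a median of -0.062 log2. Srebf1 was equal on all 3 arrays, so nothing can be said of its level. Srebf2, which encodes the main activator of the sterol enzymes, read 0 in Th0, 0.025 in Th22 and -0.25 in Th17. Another Srebf2 probe, left out because it is annotated to several symbols, was 0 on all 3 arrays. Adding that probe took the Th17 to Th22 difference of Srebf2 from -0.27 to -0.14 log2. Scap, the escort of SREBP2, went the other way, with 0 in Th0, -0.087 in Th22 and 0.20 in Th17. Insig1 and Insig2, the retention factors, were 0.051 and 0.074 log2 lower in Th17 than in Th22. Stard4, a soluble sterol carrier, read 0, 0.098 and -0.45, and at 1.46-fold was the furthest apart of the 6.

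Neither of the sterol export genes was lower in Th17 than in Th22. Abca1, which loads cholesterol and phospholipid onto apolipoprotein, read -0.054 in Th0 and 0 in both Th22 and Th17. Abcg1, which moves sterol out to mature lipoprotein, read -0.16 in Th0, 0 in Th22 and 0.32 in Th17. Th0 was thus the lowest array and Th17 the highest, and Abcg1 was 1.25-fold higher in Th17 than in Th22, inside the probe disagreement. For Th17 against Th22 the group medians were thus -0.34 log2 for synthesis enzymes, -0.42 for fatty acid synthesis, -0.062 for regulators and 0.16 for the 2 exporters, and no test of the differences between groups was possible.

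Markers of T cells moved with the same comparison. Of 8 measured markers (Cd3e, Cd3d, Cd3g, Cd4, Cd2, Cd5, Cd28 and Thy1) 8 were lower in Th17 than in Th22. Lower were 26.3% of all genes and 42.1% of those not equal on all 3 arrays. The marker differences ran from -0.59 to -0.060 log2 with a median of -0.28, close in size to the sterol enzymes. The marker mean was -0.023 on the Th0 array, 0.18 on the Th22 array and -0.11 on the Th17 array. Against Th0 the same markers had a median of -0.019 log2 in Th17. Of them 4 were lower and 4 higher, beside 28.1% and 25.2% of all genes. Among cells that could remain from the feeders, 5 of 6 B cell markers and 6 of 11 myeloid and dendritic markers were equal on all 3 arrays. Their means ran from -0.027 to 0 and from 0 to 0.045 over the arrays, and Th17 and Th22 were equal for 6 of 6 and 9 of 11. Relative to Th0, 4 myeloid and dendritic markers were lower and 1 higher in Th22, beside 31.2% and 23.8% of all genes. In Th17 3 were lower and 1 higher than in Th0, beside 28.1% and 25.2%. Lyz2, Fcgr3 and Adgre1 were 0.21, 0.20 and 0.091 log2 lower in both than in Th0, and Cd68 was 0.23 log2 higher in Th22. Of 5 CD8 and NK cell markers 3 were equal in Th17 and Th22 (median 0), Cd8a was 0.15 log2 higher in Th17 and Cd8b1 1.14 log2 lower, and Eomes was 0.79 log2 lower in both than in Th0. These values describe the cells left after the bead purification. In RNA from a bulk sample, fewer cells of a type and less RNA per cell cannot be told apart, and the part of these markers in the results was not tested.

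Th22 against Th0 describes cells given IL-6 alone, and here the same genes were nearly level. The 14 sterol enzymes had a median of -0.0081 log2, with 7 lower, 6 higher and 1 equal, and a range from -0.27 (Idi1) to 0.19 (Mvd). Over all 28 members 11 were lower and 15 higher, beside 31.2% and 23.8% of all genes. At least 2-fold apart were 0 members, against 0.261% of genes lower and 0.547% higher. At least 1.5-fold higher was 1 member, Elovl6 at 1.502-fold, against 1.6% of genes, and at least 1.5-fold lower were 0, against 0.808%. With each array centred on its mean, Elovl6 was 0.58 log2 higher, just short of 1.5-fold, and 0 members passed. Elovl6 was also the only member further apart than 95% of probe pairs, against 6.49% of genes.

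Among the fatty acid genes Elovl6 and Acly (0.28 log2) were higher in Th22 than in Th0, and Scd1 (-0.26 log2) and Fasn (-0.16 log2) lower, with a group median near 0 (-0.0076 log2). Abca1 and Abcg1 were 0.054 and 0.16 log2 higher. The regulators ran from -0.087 (Scap) to 0.098 (Insig2) log2, with Stard4 at nearly the same value as Insig2. The 8 measured T cell markers were all higher in Th22, by a median of 0.16 log2 relative to Th0. Higher were 23.8% of all genes and 38.1% of those not equal on all 3 arrays. Over all genes 52 were at least 2-fold lower and 109 higher, which quantile normalization turned into 158 and 150.

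**Figure D2:**
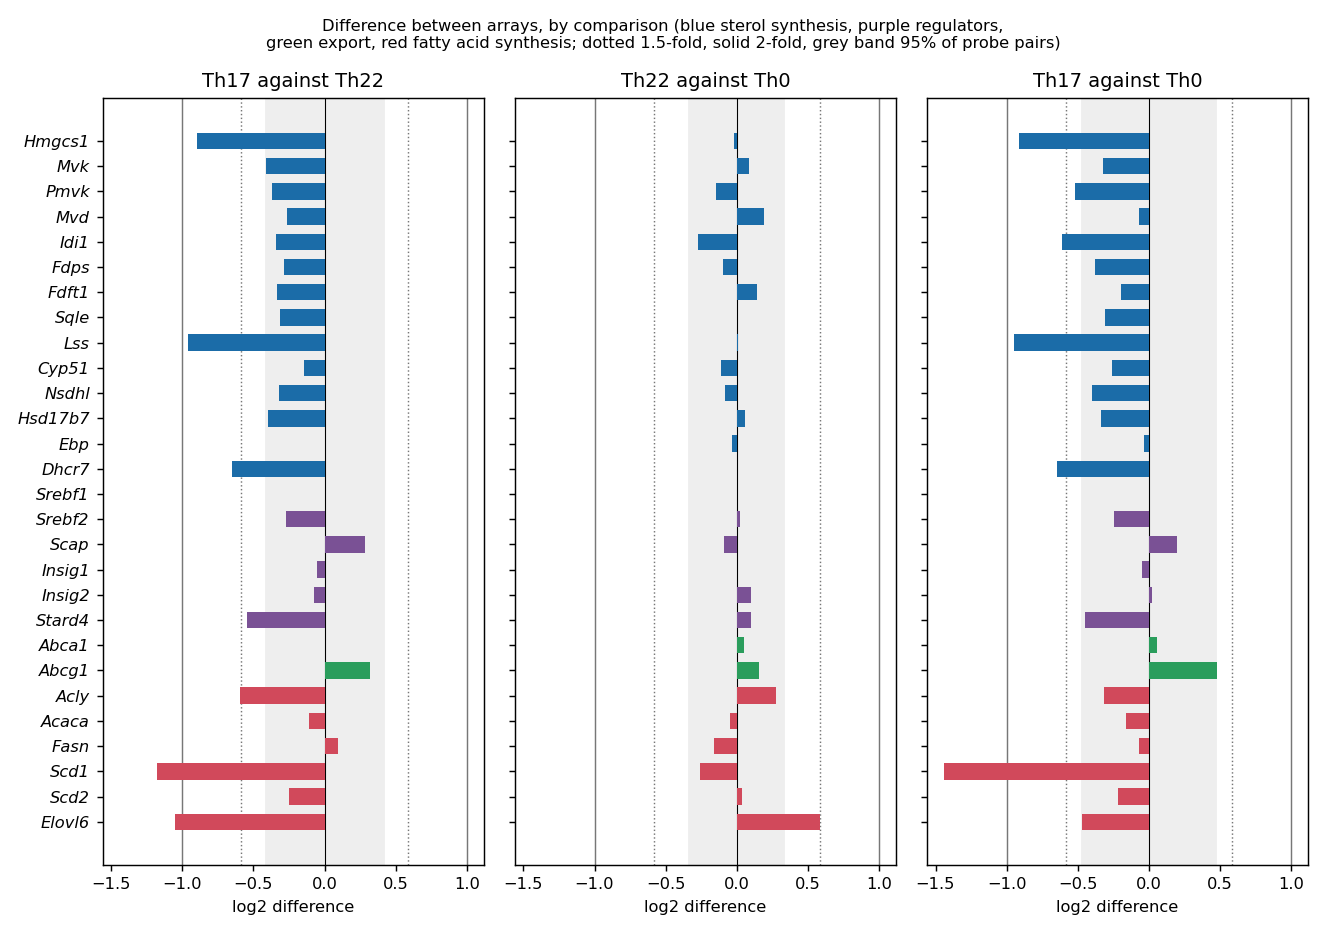
Difference between arrays in log2 for each measured gene, in each of the 3 comparisons, with blue bars for sterol synthesis, purple for regulators, green for export and red for fatty acid synthesis. The grey band holds 95% of probe pairs (0.41, 0.33 and 0.47 log2), dotted and solid lines mark 1.5-fold and 2-fold, and in the middle panel the Elovl6 bar is the only one to leave the band.

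Th17 against Th0 describes cells given both cytokines, and shares the Th17 array with the first comparison and the Th0 array with the second. Its values are therefore no independent repeat. All 14 of 14 sterol enzymes were lower in Th17, from -0.95 (Lss) to -0.034 (Ebp), with a median of -0.36 log2, a 1.28-fold difference. Of 28 members 23 were lower and 4 higher, beside 28.1% and 25.2% of all genes. Of the 12431 genes not equal on all 3 arrays, 45.0% were lower and 40.4% higher. At least 2-fold lower was 1, Scd1 at 2.71-fold, against 1.56% of genes, and at least 2-fold higher were 0, against 1.47%. Scd1 stayed past 2-fold after quantile normalization, at 2.04-fold. Over all genes 311 were at least 2-fold lower before that normalization and 218 after it.

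Relative to Th0, 5 members were lower in Th17 by 1.5-fold or more, against 3.34% of genes, and 0 were higher by that much, against 2.98%. They were Scd1, Lss (1.93-fold), Hmgcs1 (1.88-fold), Dhcr7 (1.57-fold) and Idi1 (1.53-fold). After quantile normalization 1 of them, Scd1, was still past 1.5-fold, and Lss stood at 1.497-fold. Further apart than 95% of probe pairs were 7 of 28 members, against 8.2% of genes. These were the 5 above, Pmvk (-0.52 log2) and, in the other direction, Abcg1 (0.48 log2, 1.39-fold higher in Th17), which passed the limit of 0.469 narrowly at 0.479. Elovl6 lay just inside it at -0.467.

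In the fatty acid group 6 of 6 were lower in Th17 than in Th0 (median -0.27 log2), and after Scd1 and Elovl6 came Acly at -0.32. Acaca (-0.16), Fasn (-0.067) and Scd2 (-0.22) differed less, and all of the group but Scd1 were within the probe disagreement. The regulators had 3 lower, 2 higher and 1 equal, with a median of -0.024 log2, from Stard4 at -0.45 to Scap at 0.20. The 2 exporters had a median of 0.27 log2, which is mostly Abcg1, since Abca1 was 0.054 log2 higher. Expressed over all genes, 1.67% lay at or below Lss, 1.79% at or below Hmgcs1 and 0.823% at or below Scd1.

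**Figure D3:**
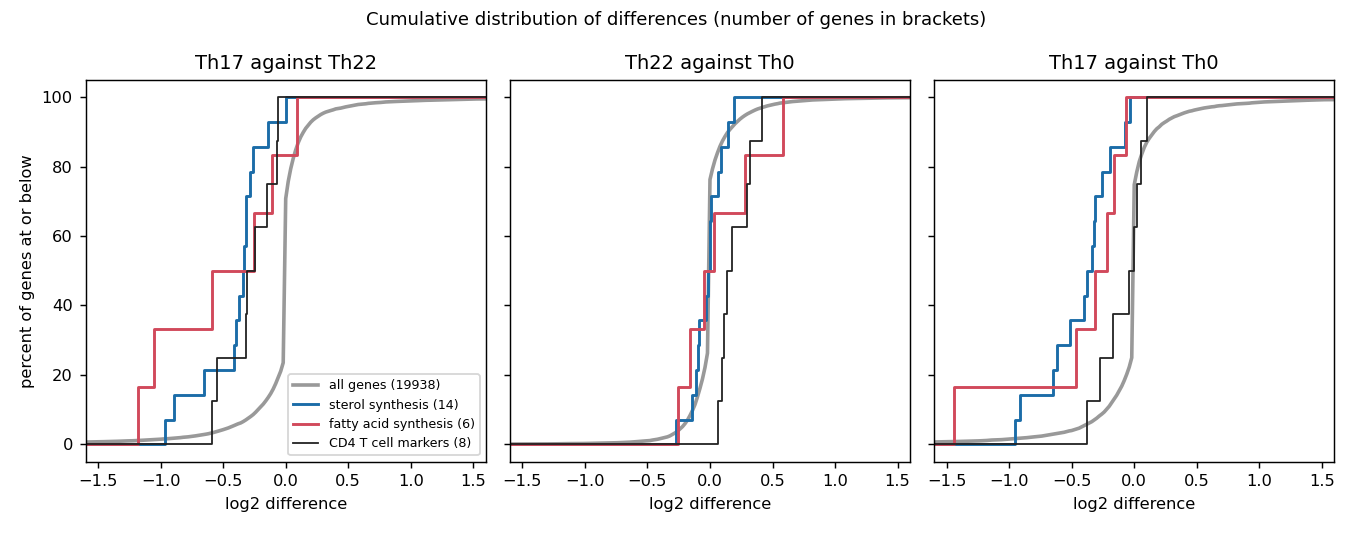
Percent of genes at or below each log2 difference, for all 19938 genes (grey), 14 sterol synthesis enzymes (blue), 6 fatty acid synthesis genes (red) and 8 CD4 T cell markers (black), in the 3 comparisons. The blue steps lie left of the grey curve where Th17 is compared, with medians of -0.34 and -0.36 log2, and near it for Th22 against Th0 at -0.0081, while the black steps lie left of it for Th17 against Th22 and about 0 for Th17 against Th0 (medians -0.28 and -0.019).

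Other genes of sterol metabolism were taken from lists written for the pathway, and those at least 1.5-fold apart are named. These lists and the fatty acid lists below were chosen with earlier results of these data known, so their counts are description only. Of 5 further synthesis genes 3 were lower in Th17 than in Th22, 1 higher (Sc5d, by 0.21 log2) and 1 equal, with a median of -0.24 log2. Over all genes 26.3% were lower and 29.2% higher. Msmo1, the oxidase that begins methyl removal, read 0.023 in Th0, 0 in Th22 and -0.64 in Th17, the pattern of Hmgcs1, Lss and Dhcr7. It was 1.56-fold lower than in Th22, and 1.31-fold after quantile normalization. Of 4 genes of SREBP processing and sterol sensing 1 was lower and 3 higher, and of 5 oxysterol enzymes 4 were equal in both cells. Of 8 genes for LXR and its targets, 3 of which are also members here, 1 was lower, 3 higher and 4 equal in Th17.

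Sterol uptake and trafficking held the largest difference among the sterol genes listed. Gramd1b encodes Aster-B, which moves cholesterol from the plasma membrane to the endoplasmic reticulum. It read 0.32 in Th0, 0 in Th22 and -1.90 in Th17, and was 3.72-fold lower in Th17 than in Th22 and 4.65-fold lower than in Th0, or 2.14-fold and 2.85-fold after quantile normalization. Its relative Gramd1a ran the other way, with -0.55 in Th0, 0 in Th22 and 0.077 in Th17, 1.55-fold higher in Th17 than in Th0. Npc2, the lysosomal cholesterol carrier, read 0, 0.0995 and -0.89, just under 2-fold lower in Th17 than in Th22 at 1.99-fold and 1.58-fold after quantile normalization. Its partner Npc1 was 0.23 log2 higher. In the list of 8 genes 5 were lower and 3 higher in Th17 than in Th22, beside 26.3% and 29.2% of all genes. The list median was -0.066 log2.

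Further genes of fatty acid synthesis and desaturation numbered 12, of which 3 were lower in Th17 than in Th22 by 1.5-fold or more, against 3.37% of all genes, and 0 higher by that much, against 2.12%. Fads2, which introduces a double bond in polyunsaturated fatty acids, read 0.055 in Th0, 0 in Th22 and -0.96 in Th17, 1.94-fold below Th22 and 2.01-fold below Th0. Quantile normalization left differences of -0.59 and -0.63 log2. Acss2, which makes acetyl-CoA from acetate, read 0, 0.41 and -0.25, with Th22 highest as for Acly and Elovl6. Elovl7, an elongase, read 0, 0.10 and -0.55, and was 1.58-fold lower in Th17 than in Th22, or 1.38-fold after quantile normalization. The list median was -0.15 log2, with 8 lower, 1 higher and 3 equal, beside 26.3% lower and 29.2% higher of all genes.

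Genes that activate fatty acids and build triglyceride were higher in Th22 than in the other cells in several cases. Relative to Th0, 3 of the 7 measured were higher in Th22 by 1.5-fold or more, against 1.6% of all genes, and 0 lower by that much, against 0.808%, and the median was 0.13 log2. Dgat1, which completes triglyceride, read -1.03 in Th0, 0.46 in Th22 and 0 in Th17. Th0 was the low array, 2.80-fold below Th22 and 2.04-fold below Th17. Dgat2, which catalyses the same step, read -0.14, 0.60 and 0, and Lpin1, the phosphatase before it, 0, 0.62 and 0, so for both Th22 was the high array. For Th17 against Th22 7 of 7 genes were lower, against 26.3% of all genes and 42.1% of those not equal on all 3 arrays. Of the 7, 2 were at least 1.5-fold lower (Lpin1 and Dgat2), against 3.37% of all genes, and the median was -0.37 log2. With each array centred on its mean 1 of them, Lpin1, passed. Acsl5, which activates fatty acids, was 0.59 log2 lower in Th17 than in Th0. Of 11 fatty acid oxidation genes 5 were lower and 2 higher in Th17 than in Th22, beside 26.3% and 29.2% of all genes. Of these oxidation genes 0 were 1.5-fold apart, and the list median was 0. Cpt1a, the gatekeeper of mitochondrial oxidation, was 0.49 log2 higher in Th17 and passed 1.5-fold after quantile normalization, at 1.53-fold, and 4 of the 11 were equal on all arrays.

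**Figure D4:**
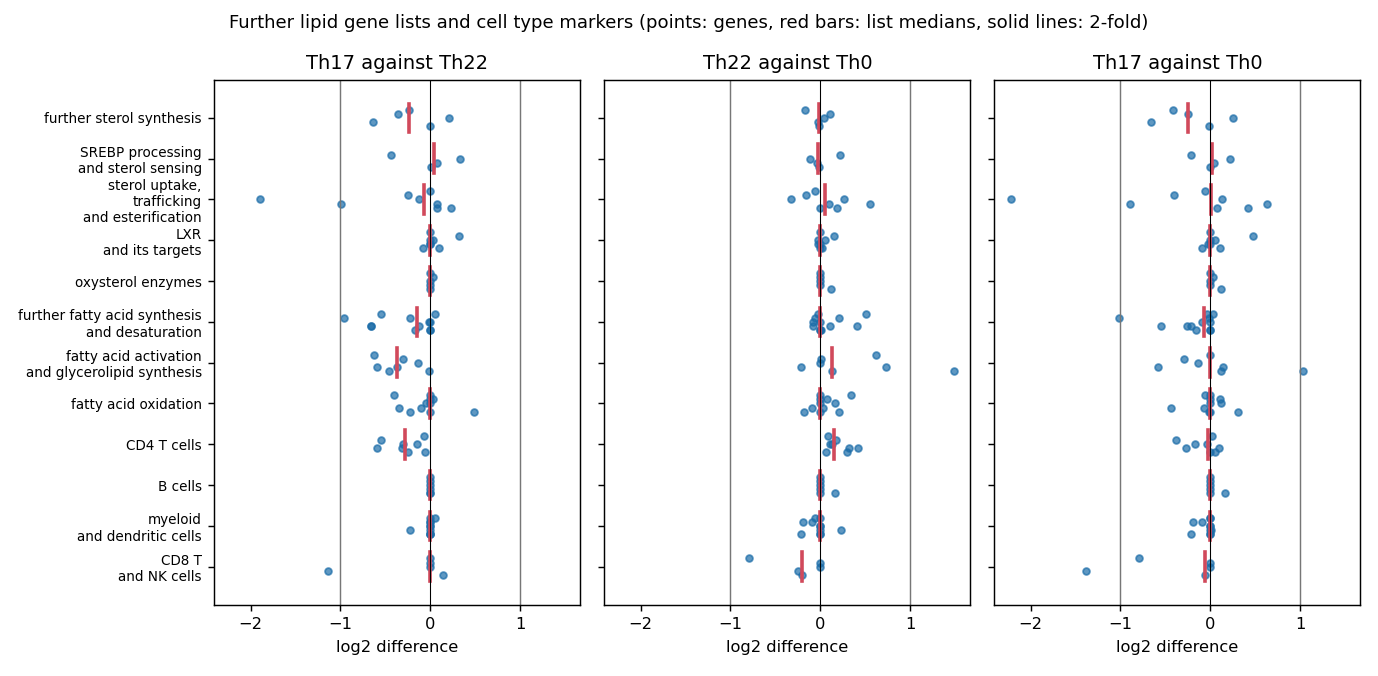
Difference in log2 for each gene (points) of the further lipid lists and of the cell type markers, with list medians as red bars and 2-fold as solid lines, in the 3 comparisons. Gramd1b lies furthest left at -1.90 for Th17 against Th22 and -2.22 for Th17 against Th0, Dgat1 furthest right at 1.49 for Th22 against Th0, and the oxidation list has a median of 0 in each panel.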

How the data were processed

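Total RNA of 3 samples was measured on single-colour, biotin-labelled Affymetrix arrays, per the labels. The deposited table holds 28853 probes as log2 values, base 2 being assumed, and the values show that each probe was centred on its median over the arrays. The authors' background correction, normalization and software were not given in the sources used here. Of the probes, 40.3% were equal on all 3 arrays.

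Probes were named from the platform annotation, with symbols updated by Entrez identifier (21698 of 21789 probes with 1 symbol). Left out were 1621 probes annotated to more than 1 symbol and 5443 without an entry. The probes of a gene were averaged. Samples were grouped by the T-helper subset in their labels. With 1 array a group, genes past 2-fold were counted, with 1.5-fold beside it, and no test was run. The counting was tested on simulated data. Alternatives were quantile normalization of the centred values, the probe of widest range, probes of several symbols, genes equal on all arrays left out, mean centring, 1.5-fold and natural logarithms. Named are all members, and genes of the further lists at least 1.5-fold apart in any comparison. Some others (Sc5d, Npc1, Cpt1a and marker genes) were chosen after their values were seen. The members and lists were chosen with earlier results of these data known. Promoter windows came from RefSeq. Python 3.11.15, pandas 2.3.3 and numpy 2.4.6 were used.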

Additional observations from a re-analysis of the deposited data

How the results depend on the processing

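No paired analysis was possible because each group has 1 array, and none could be left out. Of the group medians and counts under the alternatives, 96 stayed within 1 SD of the probe disagreement or within 1.5 times the count, and 6 counts did not. Many of the 96 could hardly have moved, so the tally is no measure of robustness. Only 3 members had several probes, 1 was equal on all 3 arrays, and mean centring shifted all genes by at most 0.017 log2. Counts that were 0 and stayed 0 are among the 96. For Th17 relative to Th22, 2 members were lower by 2-fold, against 1 after quantile normalization, 4 with natural logarithms and 6 at 1.5-fold. For Th17 relative to Th0 it was 1 member, against 3 with natural logarithms and 5 at 1.5-fold. Members higher in Th22 relative to Th0 by 2-fold were 0, against 1 at 1.5-fold. The counts over all genes past 2-fold in that comparison went from 52 lower and 109 higher to 158 and 150 with quantile normalization. Shares of all genes were not counted with natural logarithms, or at 1.5-fold under quantile normalization or mean centring. Sterol enzymes lower in Th17 than in Th22 numbered 13 of 14 under each alternative run. That count too could hardly have moved, so it is no measure of robustness either. The centred values carry no signal over background, so a floor on dim probes could not be set.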
